A study of Homo sapiens with 6 samples.

Results

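The small nucleolar RNAs (snoRNAs) of the box C/D and box H/ACA classes were examined in 2 established cell lines from human pancreatic cancer, MIA-PaCa2 and PANC-1. Each was sequenced with the LPCX vector control, with ESRP1 overexpression and with ESRP2 overexpression, 1 library for each of the 6 combinations. No group carries another allele or agent, all cells were grown with 10% fetal bovine serum, and the labels do not say whether a library came from 1 clone or a pool. ESRP1 and its paralog ESRP2 bind RNA and set epithelial splice forms, and the stated question is what each does as pancreatic cancer progresses. Sets of 3 values below are in the order LPCX, ESRP1, ESRP2. The measured values are TPM (transcript abundances summing to 1000000 per library), which scale each transcript for its length and for the size of its library. Members were all genes whose symbol begins with SNORA or SNORD and a digit and that reached 5 TPM in at least 1 library. Of 27408 genes, 538 had such a symbol and 261 were members, 162 C/D (SNORD) and 99 H/ACA (SNORA). Of the 538 symbols, 184 were listed at 0 in all 6 libraries. The members nearest the threshold from inside were SNORA74B, with a highest value of 5.01 TPM, and SNORA104 with 5.09 TPM, and the nearest outside were SNORA37 with 4.96 TPM and SNORD116-11 with 4.91 TPM.

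Most snoRNAs are cut out of the introns of other genes and stay in the nucleolus as the guide of a protein complex. Box C/D snoRNAs hold the methyltransferase fibrillarin and guide the methylation of riboses in ribosomal and spliceosomal RNA, whereas box H/ACA snoRNAs hold the pseudouridine synthase dyskerin and guide the change of uridine to pseudouridine. Some members of both classes pair with no known target, and a few of the longer ones take part in cutting the ribosomal RNA precursor. Mature snoRNAs have no poly(A) tail, the libraries were made with an mRNA kit, and how much of their RNA such libraries keep was not tested.

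The classes are defined by short boxes, which are shown here for the members to which the results return, as GENCODE release 29 transcripts on GRCh38, 5′ to 3′. In the C/D members, capitals mark TGATGA (box C) within the first 20 bases and CTGA (box D) within the last 20 bases.
SNORD96A, chr5:181241814-181241892, minus strand: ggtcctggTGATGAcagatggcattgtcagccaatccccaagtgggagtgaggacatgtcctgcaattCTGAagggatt
SNORD110, chr20:2654212-2654286, plus strand: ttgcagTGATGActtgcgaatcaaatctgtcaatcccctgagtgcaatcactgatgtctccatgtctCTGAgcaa
SNORD2, chr3:186784796-186784864, plus strand: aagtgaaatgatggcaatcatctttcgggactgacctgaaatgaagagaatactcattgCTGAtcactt
SNORD58A, chr18:49491283-49491347, minus strand: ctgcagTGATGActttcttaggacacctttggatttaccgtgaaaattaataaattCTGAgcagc
SNORD113-3, chr14:100929919-100929990, plus strand: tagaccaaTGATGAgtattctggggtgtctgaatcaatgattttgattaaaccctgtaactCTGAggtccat
SNORD116-22, chr15:25089923-25090014, plus strand: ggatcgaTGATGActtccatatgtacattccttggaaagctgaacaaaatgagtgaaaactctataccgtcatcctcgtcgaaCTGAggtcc
In the H/ACA members, capitals mark the ANANNA match nearest the midpoint (box H, centred between 33% and 67% of the length) and the last ACA within the final 20 bases.
SNORA40, chr11:93735111-93735236, minus strand: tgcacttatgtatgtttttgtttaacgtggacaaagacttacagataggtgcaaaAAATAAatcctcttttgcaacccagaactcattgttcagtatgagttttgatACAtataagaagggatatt
SNORA70, chrX:154400281-154400415, plus strand: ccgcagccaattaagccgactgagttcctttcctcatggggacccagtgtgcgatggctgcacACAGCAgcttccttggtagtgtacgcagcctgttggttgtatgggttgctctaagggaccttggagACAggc
SNORA8, chr11:93732361-93732499, minus strand: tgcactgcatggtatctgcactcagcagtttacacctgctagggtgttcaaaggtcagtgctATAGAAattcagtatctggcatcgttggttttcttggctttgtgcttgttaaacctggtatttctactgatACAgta
SNORA63, chr3:186787300-186787431, plus strand: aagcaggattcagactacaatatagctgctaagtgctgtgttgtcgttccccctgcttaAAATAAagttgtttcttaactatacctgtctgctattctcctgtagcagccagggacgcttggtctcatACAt
SNORD2 held box D but no exact box C in that window, and in SNORA40 the ACA stood 16 bases from the end of the annotated transcript, against 3 bases in SNORA70 and SNORA8. Sequences were found for 217 members. The transcript strand was searched, and the motifs may overlap. TGATGA and CTGA were both present in 65.1% of 126 C/D members and in 71.4% of 140 other C/D symbols, and in 0 of 91 H/ACA members. ACA and ANANNA were both present in 90.1% of the 91 H/ACA members, in 88.9% of 54 other H/ACA symbols and in 3.17% of the C/D members. The boxes thus went with the class given by the symbol, in members and non-members alike, and a match of letters is a description of the sequence and not evidence of a working box.

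ESRP1 stood at 367 TPM in the ESRP1 library of MIA-PaCa2 and at 491 TPM in that of PANC-1, and at 0.261 TPM or less in the other 4 libraries. ESRP2 stood at 197 TPM in MIA-PaCa2 and 308 TPM in PANC-1 with ESRP2, at 0.106 TPM or less in the other MIA-PaCa2 libraries, and at 34.8 and 37.7 TPM in PANC-1 with LPCX and with ESRP1. The epithelial keratins KRT8 and KRT18 were at 679.8 to 2223 TPM in every library, and KRT19 was at 234 to 502 TPM. The other epithelial markers were low or absent in MIA-PaCa2. EPCAM was at 0 TPM there and at 24.3 to 28.2 TPM in PANC-1, and CDH1 at 0.112 to 0.173 TPM and at 3.89 to 8.59 TPM. The leukocyte marker PTPRC was at 0.563 TPM or less. The 2 endothelial and 4 acinar and islet markers each summed to 0.353 TPM or less per library, 4 fibroblast markers summed to 66.4 to 132 TPM, and 3 leukocyte markers to 20.5 to 364 TPM, nearly all of it CD68. TPM keeps no read depth, and no counting interval is given.

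The values of these short RNAs did, however, fall on steps. Among small RNA entries of 1 length in 1 library, TPM were whole multiples of a fixed amount, as whole reads assigned to entries of 1 effective length would give, and this amount is called a step here. Of 962 member values between 0.3 and 20 steps, 90.1% lay within 0.1 of a whole number, against 20% for evenly spread values. The steps were chosen to bring values near whole numbers, from entries that include these members, so this share is a description and no test. Steps could be placed for 230 members, 150 C/D and 80 H/ACA, between 61 and 143 nt long. They were read at 21 to 30 lengths per library and interpolated between these. All 6 libraries had steps from 67 to 137 nt, and 6 nt on each side were added by extrapolation. At those added lengths, 83.9% of 93 values lay within 0.1 of a whole step. PANC-1 with LPCX had no step read between 98 and 132 nt. For an entry of 75 nt, close to the C/D median of 78 nt, 1 step was worth 2.58, 2.29 and 2.63 TPM in MIA-PaCa2 (LPCX, ESRP1, ESRP2), and 2.04, 2.03 and 2.19 TPM in PANC-1 in the same order. For an entry of 135 nt, the H/ACA median, it was worth 2.22, 1.63 and 1.68 TPM in MIA-PaCa2 and 2.53, 1.62 and 1.65 TPM in PANC-1. At 135 nt both LPCX libraries therefore stood above all 4 ESRP libraries, and PANC-1 with LPCX stood highest, while at 75 nt the LPCX libraries did not stand apart. The effective length read from the step at 135 nt was 38.6 nt in MIA-PaCa2 and 28.4 nt in PANC-1 with LPCX, and 46.5 to 49.1 nt in the 4 ESRP libraries. A comparison of H/ACA TPM between ESRP and LPCX libraries moves with this, so summaries over members are also given with 1 effective length per short RNA for all 6 libraries. Members without a step kept the deposited TPM there, unless a summary is for members with a step alone. The threshold of 5 TPM was 1.9 to 3.1 steps at these lengths, and 90 of 150 C/D and 49 of 80 H/ACA members had a mean of under 10 steps.

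**Figure D1:**
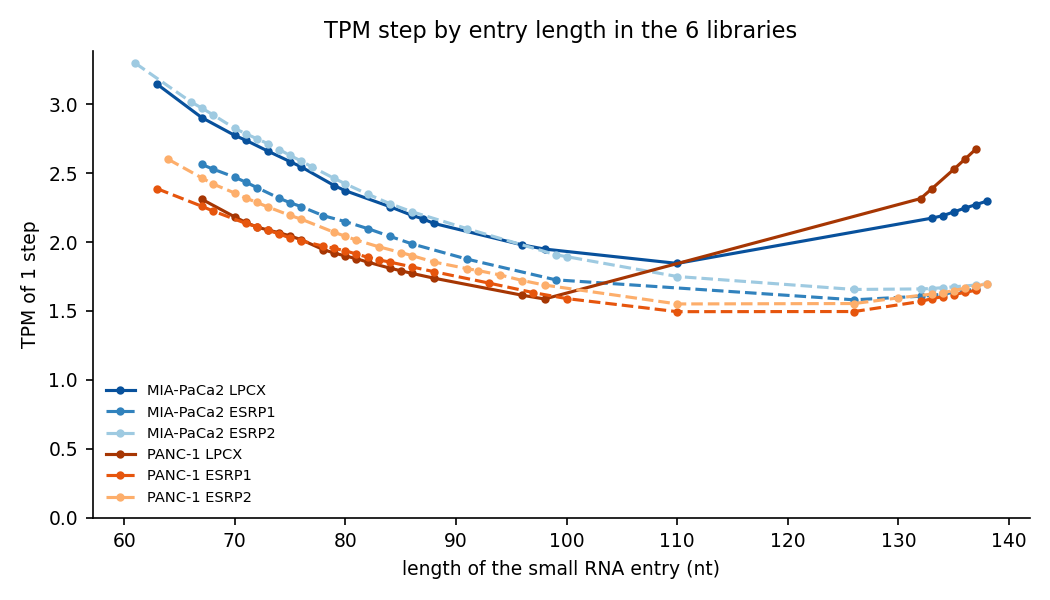
TPM worth of 1 step (vertical axis) by the length of the small RNA entry in nt (horizontal axis), 1 line per library, with LPCX libraries as solid and ESRP libraries as dashed lines. At 135 nt the LPCX lines reach 2.22 and 2.53 TPM and the ESRP lines 1.62 to 1.68 TPM.

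The most abundant C/D member by mean TPM was SNORD96A, which lies in an intron of RACK1, a ribosomal scaffold protein gene. It stood at 367, 345 and 379 TPM in MIA-PaCa2 (LPCX, ESRP1, ESRP2), and at 301, 319 and 249 TPM in PANC-1. All 3 PANC-1 values lay below the lowest MIA-PaCa2 value, with a log2 difference of -0.33 (limma adjusted p = 0.0271), which with 1 effective length per short RNA was -0.19 (limma adjusted p = 0.143). SNORD17, in an intron of SNX5, stood at 285, 444 and 152 TPM in MIA-PaCa2 and 119, 173 and 186 TPM in PANC-1, so that the lines overlapped and the constructs had no common order. SNORD159, in LSS, the lanosterol synthase gene, stayed between 181 and 262 TPM in all 6 libraries. Next came SNORD80, SNORD44 and SNORD47 in GAS5, SNORD25 in SNHG1 and SNORD110 in NOP56, itself the gene of a C/D complex protein.

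The most abundant H/ACA member was SNORA40, in an intron of TAF1D, a gene of a factor of RNA polymerase I transcription. It stood at 421, 295 and 245 TPM in MIA-PaCa2 (LPCX, ESRP1, ESRP2) and at 436, 218 and 257 TPM in PANC-1. In both lines the LPCX library was the highest of the 3. SNORA70, in RPL10, stood at 202, 186 and 164 TPM in MIA-PaCa2 and at 359, 152 and 155 TPM in PANC-1. SNORA8, also in TAF1D, stood at 111, 84.1 and 76.6 TPM in MIA-PaCa2 and at 346, 125 and 135 TPM in PANC-1. SNORA61, in SNHG12, stood at 103, 87.8 and 104 TPM in MIA-PaCa2 and at 157, 105 and 89.3 TPM in PANC-1. For each of these the PANC-1 LPCX library was the highest of all 6. SNORA73A and SNORA73B in RCC1, longer RNAs of 207 and 205 nt with closely similar sequences between which reads may be divided, had another order. SNORA73A stood at 88.3, 103 and 91.4 TPM in MIA-PaCa2 and 107, 193 and 106 TPM in PANC-1, and SNORA73B was likewise highest in PANC-1 with ESRP1, at 167 TPM against 74.7 to 99.4 TPM elsewhere.

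**Figure D2:**
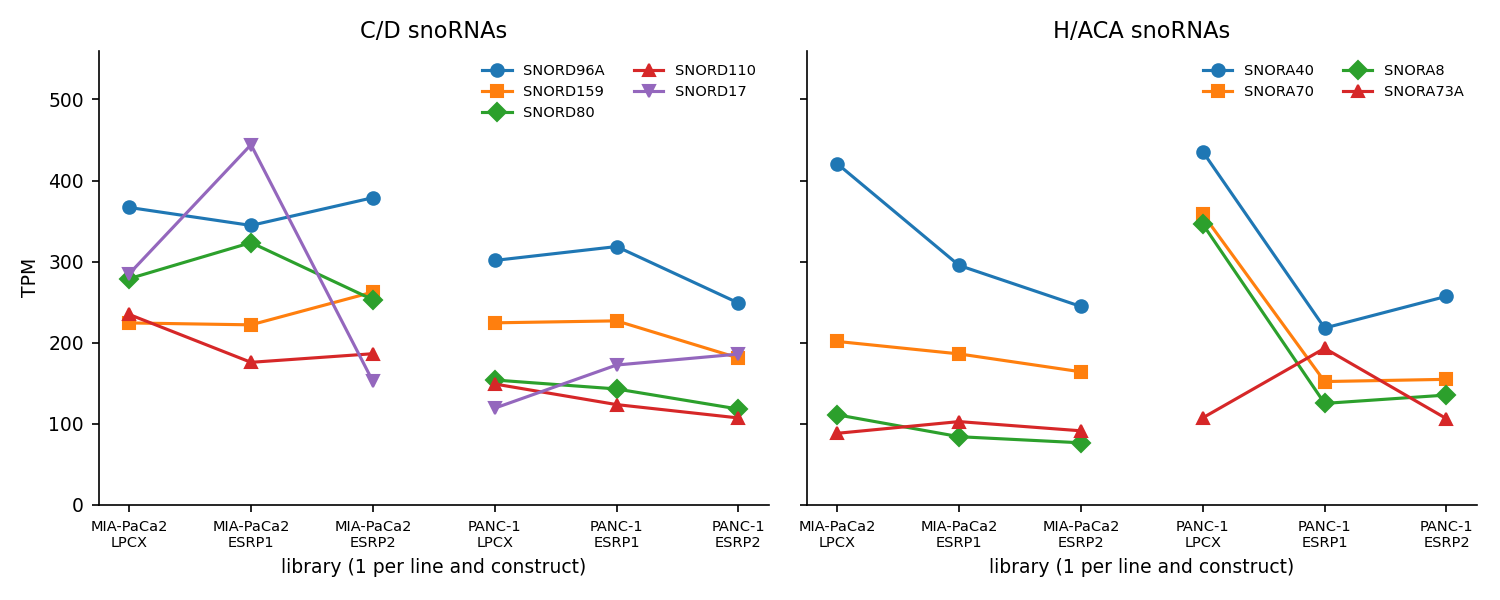
TPM (vertical axis) of 5 abundant C/D members and 4 abundant H/ACA members in each of the 6 libraries (horizontal axis), 1 library per line and construct, with lines joining the libraries of a cell line. SNORA40, SNORA70 and SNORA8 are highest in PANC-1 with LPCX, whereas SNORD96A and SNORD159 change little between LPCX and ESRP1.

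Members were unevenly measured. At least 5 TPM was reached in all 6 libraries by 124 members and in exactly 1 library by 26, and 64 were listed at 0 in at least 1 library. A mean of at least 20 TPM was reached by 106. The 10 highest C/D members of a library held 32.5% to 42.1% of the C/D sum, and the 10 highest H/ACA members 44.1% to 54.9% of the H/ACA sum. For 12 symbols the values were identical to those of another member, as for SNORA15B-1 and SNORA15B-2 or SNORD116-17 and SNORD116-19, so these copies cannot be told apart.

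By annotated position, 223 members lay within 117 host genes, 215 of them in an intron and 7 in an exon, and for 38 no host was found. Hosts with a coding transcript held 173 members, and 53 lay in 26 ribosomal protein genes. The host with most members was GAS5, a non-coding gene, with 11, followed by SNHG1 and TAF1D with 8 each and EIF4A2, a gene of a translation initiation factor, with 5. Strand was known for 217 members, and without stranded counting, which the sources used here do not give, reads of a snoRNA and of the unspliced host cannot be told apart.

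More members passed the test between the cell lines than between constructs. With limma on log2 of TPM plus 1, and construct as a term, 235 members could be tested, and the rest did not reach 5 TPM in 2 libraries. At an adjusted p under 0.05, 43 members were higher in PANC-1 than in MIA-PaCa2, against 43.1% of all 11829 genes tested, and 68 were lower, against 35.6%. The members called were 18.3% and 28.9% of those tested, so the share called was below that of all genes in both directions. Of the 43, 8 reached 5 TPM in PANC-1 alone, and of the 68, 7 in MIA-PaCa2 alone, and these had to differ by the way they were chosen. The median log2 difference was -0.33 over all 162 C/D members and -0.17 over all 99 H/ACA members, beside 0.08 over all genes tested. With 1 effective length per short RNA, 48 members were higher and 71 lower, and 42 and 63 of those were called with the deposited TPM as well. The 3 libraries of a line differ in construct, and nothing in the labels says that they came from separate cultures, so the p-values measure only the spread between these libraries.

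Among the members higher in PANC-1 were small RNAs of imprinted clusters. All 4 members of the SNORD113 and SNORD114 families, C/D snoRNAs with no known ribosomal target in introns of MEG8 on chromosome 14, were listed at 0 in all MIA-PaCa2 libraries. In PANC-1, SNORD113-3 stood at 23.5, 10.7 and 13.9 TPM. SNORD113-4 stood at 6.2, 16.4 and 4.4 TPM, and SNORD114-10 at 15.0, 6.4 and 4.6 TPM. SNORD114-1 stood at 10.7, 6.40 and 2.32 TPM. These 4 became members through their PANC-1 values alone, so the direction was fixed by the choice and no p-value is given. Their host MEG8 was listed at 0 in MIA-PaCa2 and at 10.5, 8.35 and 6.21 TPM in PANC-1, and its neighbour MEG3 at 0.0454 TPM or less and at 163, 105 and 72.1 TPM.

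The SNORD116 family on chromosome 15, a tandem array of C/D snoRNAs in the region of Prader-Willi syndrome, had 17 members. Summed over them, TPM were 117, 92.2 and 186 in the MIA-PaCa2 libraries and 261, 281 and 228 in PANC-1, so that every PANC-1 library stood above every MIA-PaCa2 library. Of 13 that could be tested, 4 were higher in PANC-1, 1 of them a member through its PANC-1 values alone, and 1, SNORD116-24, was lower. That is 30.8% higher, below the 43.1% of all genes, and 7.69% lower, against 35.6%. SNORD116-21 was listed at 0 in all MIA-PaCa2 libraries and stood at 24.7, 42.3 and 24.9 TPM in PANC-1, and it is the 1 chosen through PANC-1. SNORD116-22 stood at 13.8, 8.4 and 13.1 TPM in MIA-PaCa2 and at 47.0, 48.6 and 52.4 TPM in PANC-1, with no overlap and a log2 difference of 2.01 ± 0.14 (SE, limma adjusted p = 7.2e-05). SNORD116-24 stood at 12.1, 14.4 and 14.1 TPM in MIA-PaCa2 and at 8.2, 8.4 and 7.0 TPM in PANC-1. The copies of the array differ little in sequence, and how reads were divided between them was not tested.

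SNORD175, a C/D snoRNA in an intron of SUPT5H on chromosome 19, stood at 35.1, 19.1 and 30.2 TPM in MIA-PaCa2 and at 200.3, 165 and 151 TPM in PANC-1. The log2 difference was 2.60 ± 0.15 (SE, limma adjusted p = 3.49e-05), and the lines did not overlap. SUPT5H, a gene of a transcription elongation factor, stood at 111 to 119 TPM in MIA-PaCa2 and 1334 to 1517 TPM in PANC-1. FBL, which encodes fibrillarin and lies 357.8 kb away on the same chromosome, stood at 199 to 212 TPM and at 2629 to 3499 TPM.

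The GAS5 snoRNAs differed between the lines in the other direction. All 11 had a log2 difference below 0, with a median of -0.97, and 8 passed the test, that is, 72.7% beside 35.6% of all genes. SNORD74 stood at 245, 189 and 211 TPM in MIA-PaCa2 and at 67.5, 52.7 and 66.2 TPM in PANC-1, a log2 difference of -1.78 ± 0.06 (SE, limma adjusted p = 8.08e-06). SNORA103, which overlaps a GAS5 exon, stood at 89.9, 57.6 and 57.7 TPM and at 19.5, 10.9 and 15.2 TPM, a log2 difference of -2.10 ± 0.10 (SE, limma adjusted p = 1.89e-05). Neither overlapped between the lines. SNORD80, SNORD47 and SNORD76 had smaller log2 differences, of -1.04, -0.87 and -0.76. GAS5 itself stood at 396, 359 and 361 TPM in MIA-PaCa2 and 243, 187 and 159 TPM in PANC-1, a log2 difference of -0.94 (limma adjusted p = 0.000357). Of the 8 SNHG1 snoRNAs, 3 were lower and 0 were higher in PANC-1, with a median log2 difference of -0.37. That is 37.5% lower, near the 35.6% of all genes, and 0% higher, against 43.1%.

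SNORD58A, a C/D snoRNA in an intron of RPL17, stood at 136, 86.9 and 94.7 TPM in MIA-PaCa2 and at 26.3, 9.3 and 12.7 TPM in PANC-1. Its log2 difference was -2.74 ± 0.15 (SE, limma adjusted p = 2.9e-05), and that of RPL17 was -0.98. Over the 50 testable members in ribosomal protein genes, 21 were lower and 4 were higher in PANC-1, with a median log2 difference of -0.59. That is 42% lower, near the 35.6% of all genes, and 8% higher, against 43.1%.

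SNORA70G, an H/ACA snoRNA for which no host was found, had the lowest log2 difference between the lines, -3.98. It stood at 19.4, 34.7 and 20.7 TPM in MIA-PaCa2 and at 3.04, 0 and 0 TPM in PANC-1. SNORD36B in RPL7A, SNORD33 in RPL13A and SNORA77 in ATP2B4 were likewise called lower, and like SNORA70G they reached 5 TPM in MIA-PaCa2 alone, so that their direction was fixed by the choice and no p-value is given. Their PANC-1 values were at most 4.28, 1.96 and 1.87 TPM. SNORA92, an H/ACA snoRNA in TMEM184B, stood at 32.2, 17.4 and 19.8 TPM in MIA-PaCa2 and at 14.6, 0 and 3.72 TPM in PANC-1. The lines did not overlap, and the log2 difference was -2.48 ± 0.56 (SE, limma adjusted p = 0.0086). SNORA70H stood at 4.43, 9.80 and 13.4 TPM and at 5.05, 0 and 0 TPM, with the LPCX values in reverse order and a log2 difference of -2.38 ± 0.78 (SE, limma adjusted p = 0.0338). How reads were divided between SNORA70 and the symbols named after it was not tested.

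In other host genes, snoRNA and host differed between the lines in unlike ways. SNORD2, in EIF4A2, stood at 30.5, 37.0 and 16.9 TPM in MIA-PaCa2 and at 93.7, 104 and 47.1 TPM in PANC-1, a log2 difference of 1.49 ± 0.06 (SE, limma adjusted p = 1.42e-05). EIF4A2 had a log2 difference of -0.35 (limma adjusted p = 0.0184), that is, in the opposite direction. SNORA8 and SNORA1 were among the TAF1D snoRNAs called higher in PANC-1, with log2 differences of 1.0 and 0.72, while TAF1D differed by -0.11 (limma adjusted p = 0.164). With 1 effective length the SNORA8 difference was 0.79 (limma adjusted p = 0.00108).

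Across the 223 pairs of a snoRNA and its host, Spearman's rho of their log2 differences between the lines was 0.46, and 154 pairs had the same sign. For ESRP1 minus LPCX rho was -0.002, and for ESRP2 minus LPCX it was -0.007. Pairs share hosts and libraries, so these are descriptions with no test. The median log2 difference between ESRP1 and LPCX was -0.45 for the snoRNAs and 0.01 for their hosts, and between ESRP2 and LPCX -0.58 and -0.03. The snoRNA lay below its host in 167 and 174 of the 223 pairs. With 1 effective length per short RNA the snoRNA medians were -0.27 and -0.40, and the snoRNA lay below its host in 150 and 163 pairs. Over the 194 pairs with a step alone, the medians were -0.27 and -0.39, and the snoRNA lay below its host in 132 and 140. On both scales, then, the snoRNA medians with an ESRP were below 0, by less with 1 effective length, beside host medians near 0.

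**Figure D3:**
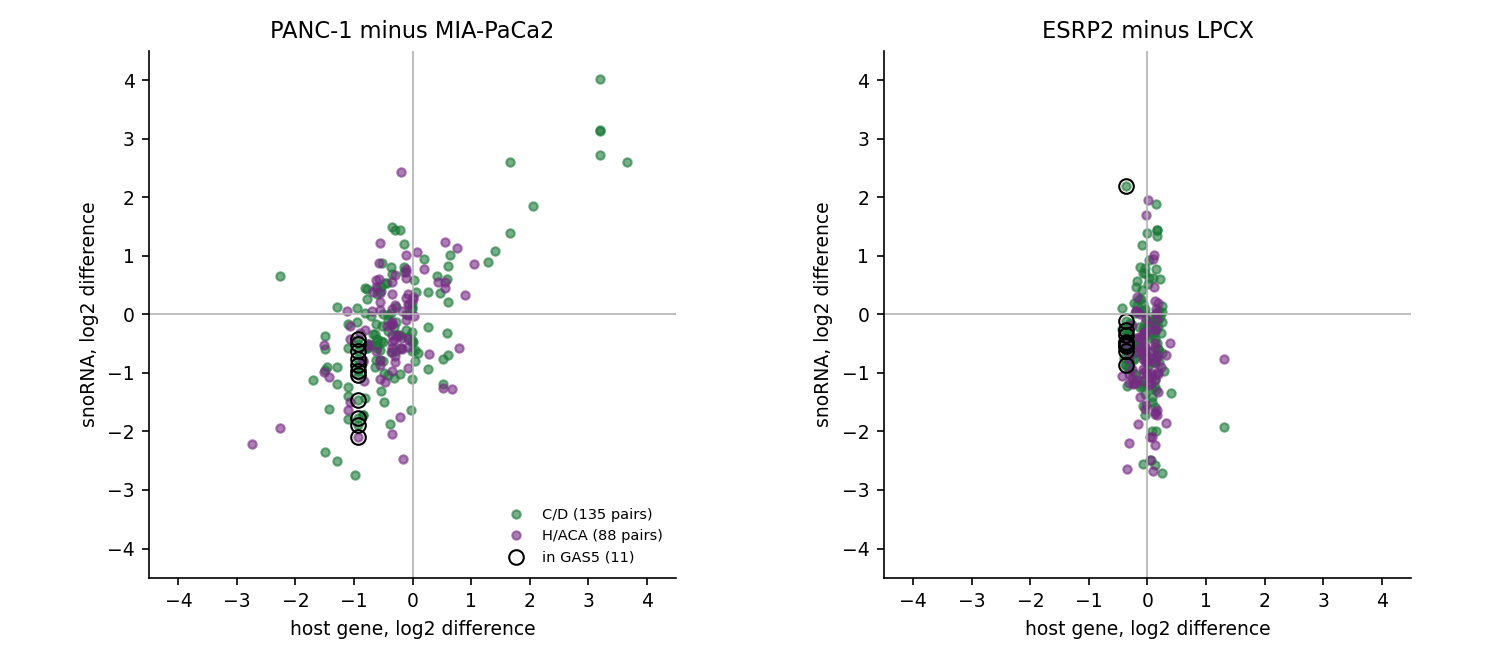
Log2 difference of each snoRNA (vertical axis) against that of its host gene (horizontal axis) for 135 C/D and 88 H/ACA pairs, between the lines (left) and between ESRP2 and LPCX (right), with the 11 GAS5 members ringed. Hosts spread along the horizontal axis between the lines (rho 0.46) and stay close to 0 between ESRP2 and LPCX (rho -0.007), where most snoRNAs lie below 0.

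Summed TPM were lower with either ESRP than with LPCX, more so for H/ACA than for C/D members. The C/D sum was 6399, 5881 and 5972 TPM in MIA-PaCa2 (LPCX, ESRP1, ESRP2), and 6031, 4873 and 4003 TPM in PANC-1. The H/ACA sum was 3322, 2650 and 2586 TPM in MIA-PaCa2, and 4568, 2502 and 2166 TPM in PANC-1. In each line the LPCX library was the highest for both classes, with the H/ACA sum of PANC-1 with LPCX above the other 5. Among the 230 members with a step, H/ACA TPM per C/D TPM was 0.495, 0.426 and 0.386 in the MIA-PaCa2 libraries and 0.728, 0.428 and 0.490 in PANC-1. With 1 effective length per short RNA it was 0.463, 0.472 and 0.474 in the MIA-PaCa2 libraries and 0.494, 0.433 and 0.520 in PANC-1, so that LPCX was the lowest in MIA-PaCa2 and lay between the ESRP libraries in PANC-1.

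**Figure D4:**
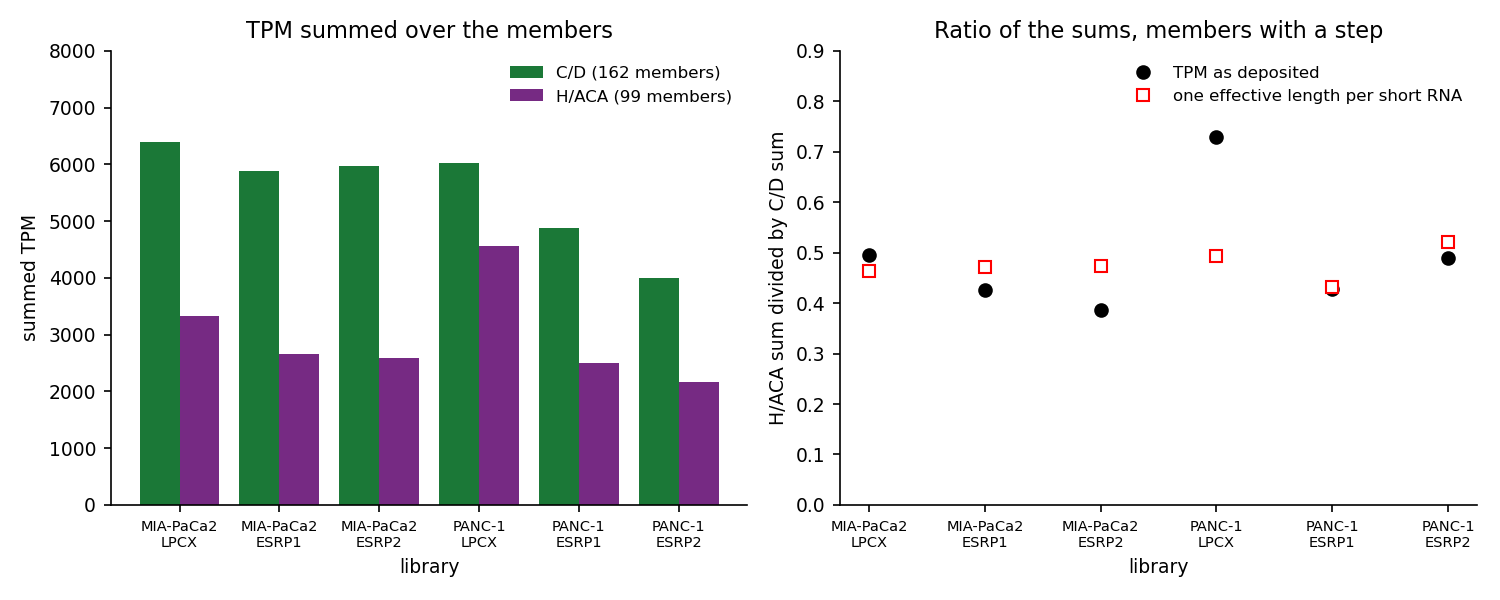
Left, TPM summed over the 162 C/D and 99 H/ACA members (vertical axis) in each library (horizontal axis). Right, the H/ACA sum divided by the C/D sum over 230 members with a step, as deposited (filled circles) and with 1 effective length per short RNA (open squares), where the value of PANC-1 with LPCX goes from 0.728 to 0.494.

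Single members were counted next. There is 1 library per line and construct, so these ratios carry no test. In PANC-1 with ESRP1, 72 of 230 members with at least 5 TPM in either library were at least 2-fold lower than with LPCX, against 1.14% of all such genes, and 13 were at least 2-fold higher, against 0.368%. In PANC-1 with ESRP2, 95 of 234 were lower, against 1.58%, and 12 higher, against 0.377%. In MIA-PaCa2 the counts were nearer to each other, with 30 of 231 lower (background 0.742%) and 14 higher (0.538%) for ESRP1, and 31 of 229 lower and 23 higher (0.808% each) for ESRP2. By class, 44 of 87 H/ACA and 28 of 143 C/D members were at least 2-fold lower in PANC-1 with ESRP1, and 56 of 90 and 39 of 144 with ESRP2. The class split was smaller with 1 effective length per short RNA, and its cause was not tested. Among members with a step, in PANC-1 with ESRP1, 41 of 80 H/ACA and 29 of 150 C/D members were lower with the deposited TPM, and 15 and 24 with 1 effective length per short RNA. With ESRP2 they were 48 and 39, and then 23 and 35. In MIA-PaCa2 with ESRP1, 11 H/ACA members with a step were lower and 4 higher with the deposited TPM, and 3 were lower and 8 higher with 1 effective length. With ESRP2 in MIA-PaCa2 the H/ACA counts went from 18 lower and 7 higher to 9 and 9, and those of C/D members were 16 lower and 18 higher on both scales. Over both classes, the counts with 1 effective length were 22 lower and 18 higher for ESRP1 and 23 lower and 25 higher for ESRP2 in MIA-PaCa2, so that lower members no longer outnumbered higher ones for ESRP2. In PANC-1 they were 39 lower and 20 higher for ESRP1 and 62 lower and 12 higher for ESRP2. These counts over both classes include members without a step but need at least 5 TPM in either library. The counts over members with a step had no such filter, so these sets of members differ. ESRP1 and ESRP2 ratios of a line share its LPCX library.

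Median log2 ratios over the 80 H/ACA members with a step were -0.38 and -0.37 in MIA-PaCa2 with ESRP1 and ESRP2, and -1.07 and -1.21 in PANC-1. Holding the effective length gave -0.11, -0.05, -0.46 and -0.55. Over the 150 C/D members with a step the medians were -0.14, 0, -0.30 and -0.55 with the deposited TPM, and -0.14, -0.04, -0.19 and -0.52 with 1 effective length. The 2 classes were thus closer to each other once the effective length was held the same, and the PANC-1 medians of both classes were below 0 on both scales. The 8 C/D members of 101 to 143 nt, the length range of most H/ACA members, had medians of -0.66, -0.28, -0.61 and -1.02 with the deposited TPM and -0.52, -0.28, -0.22 and -0.57 with 1 effective length. Most of these 8 lie between 98 and 132 nt, where no step was read for PANC-1 with LPCX. An interpolated step that is too high there would put their PANC-1 medians with 1 effective length too close to 0. The 19 H/ACA members longer than 143 nt, for which no step could be placed, had medians of 0 and 0 for MIA-PaCa2, and -0.67 and -1.20 in PANC-1.

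**Figure D5:**
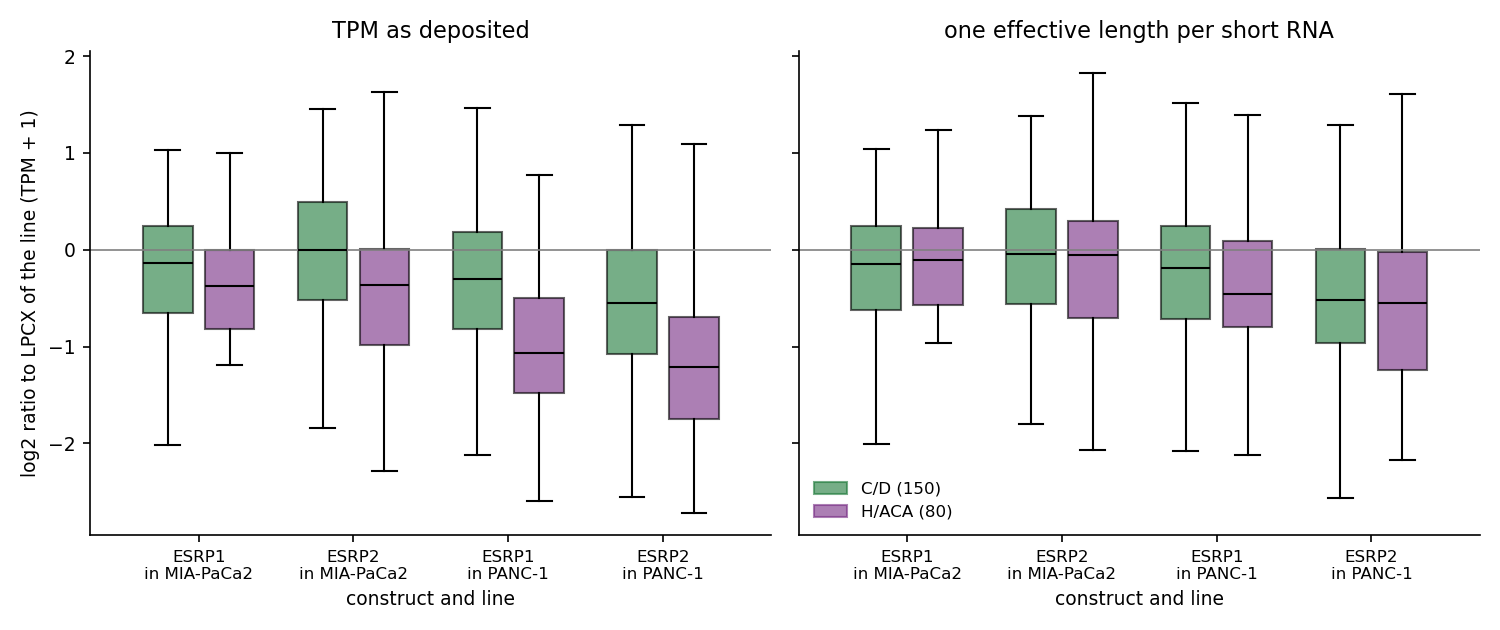
Log2 ratio of TPM plus 1 to the LPCX library of the same line (vertical axis) for each construct and line (horizontal axis), over 150 C/D and 80 H/ACA members, as deposited (left) and with 1 effective length per short RNA (right). Boxes span the quartiles around the median and whiskers the 5th to 95th percentiles of the members. The H/ACA medians for PANC-1 go from -1.07 and -1.21 to -0.46 and -0.55.

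Taken over both lines, with cell line as a term in limma, the median log2 difference between ESRP1 and LPCX was -0.62 over the 90 testable H/ACA members and -0.33 over the 145 testable C/D members, beside 0.06 over all genes tested. Between ESRP2 and LPCX it was -0.80 and -0.33, beside 0.06. The medians with 1 effective length were -0.20 and -0.27 for ESRP1 and -0.40 and -0.36 for ESRP2, so the order of the classes turned for ESRP1. Without the PANC-1 LPCX library the deposited TPM gave -0.33 and -0.11 for ESRP1 and -0.42 and -0.20 for ESRP2. With ESRP1, 114 of 209 members with at least 5 TPM in each line were lower than LPCX in both lines, against 15.1% of all such genes, and 25 were higher in both, against 47.9%. With ESRP2, 112 of 210 were lower in both, against 17.0%, and 23 higher in both, against 45.4%. Holding the effective length, 94 were lower and 34 higher in both lines for ESRP1, and 100 and 24 for ESRP2.

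No member passed the limma test between ESRP1 and LPCX in either direction (background 0.0% lower and 0.00845% higher). At an unadjusted p under 0.05, 69 members were lower, against 1.81% of all genes, and 6 were higher, against 5.12%. Between ESRP2 and LPCX, 1 member was called lower and 0 higher (background 0.00845% each), and at an unadjusted p under 0.05, 87 were lower, against 3.64%, and 12 were higher, against 10.2%. Between ESRP2 and ESRP1, 0 members were called (background 0.00845% lower and 0.0% higher), with 38 lower and 20 higher at an unadjusted p under 0.05, against 2.2% and 2.0%. At an unadjusted p under 0.05 with 1 effective length per short RNA, 48 members were lower and 10 higher for ESRP1 against LPCX, and 70 and 11 for ESRP2. With 1 library per line and construct, the error of this fit comes from how unlike a construct's effect is in the 2 lines, on 2 residual degrees of freedom.

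The called member was SNORA63B, an H/ACA snoRNA in an intron of EIF4A2. It stood at 20.02, 12.6 and 3.32 TPM in MIA-PaCa2 (LPCX, ESRP1, ESRP2) and at 29.9, 16.4 and 6.19 TPM in PANC-1. The order LPCX, ESRP1, ESRP2 was the same in both lines, and both ESRP2 values were below the other 4. The log2 difference between ESRP2 and LPCX was -2.19 ± 0.12 (SE, limma adjusted p = 0.0281). In steps interpolated at its 125 nt, MIA-PaCa2 had 9.8, 7.9 and 2.0 and PANC-1 had 13.9, 10.9 and 4.0. PANC-1 with LPCX had no step read between 98 and 132 nt. In that library SNORA77, also of 125 nt, stood at 1.87 TPM, which is below 1 interpolated step. The SNORA63B value there is a whole multiple of the SNORA77 value, so the interpolated step was too high and 13.9 is too low. The difference with 1 effective length rests on the same interpolation, so its PANC-1 part is too close to 0. The log2 difference with 1 effective length was -1.82 (limma adjusted p = 0.0763), and over the alternatives tried the adjusted p ran from 0.0197 to 0.192, except where the cell line term was left out, when SNORA63B was far from the threshold.

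The other 4 EIF4A2 members did not pass the test between ESRP2 and LPCX. SNORD2 had a log2 difference of -0.90 ± 0.08 (SE, limma adjusted p = 0.157), with both ESRP2 values the lowest of their line, and against ESRP1 its log2 difference was -1.10 (limma adjusted p = 0.0693). These were, with 1 effective length, -0.94 (limma adjusted p = 0.0763) and -1.21 (limma adjusted p = 0.0261). SNORA63, a relative of SNORA63B, stood at 73.1, 32.7 and 46.9 TPM in MIA-PaCa2 and 116, 46.9 and 42.8 TPM in PANC-1, a log2 difference between ESRP2 and LPCX of -1.02 ± 0.19 (SE, limma adjusted p = 0.329), and of -0.50 (limma adjusted p = 0.338) with 1 effective length. SNORA4 had a log2 difference of -1.18, and of -0.62 with 1 effective length. SNORA81, for which no step could be placed, had one of -0.77. EIF4A2 had one of -0.32 (limma adjusted p = 0.347).

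SNORD4A, a C/D snoRNA in an intron of RPL23A, stood at 5.4, 7.2 and 0 TPM in MIA-PaCa2 and at 16.9, 16.9 and 2.3 TPM in PANC-1, which were 2, 3 and 0 steps and 8, 8 and 1 step. Both ESRP2 libraries were below the others of their line. The log2 difference between ESRP2 and LPCX was -2.56 ± 0.17 (SE, limma adjusted p = 0.0541), and with 1 effective length -2.55 (limma adjusted p = 0.0382). Of the abundant members, SNORA40 had log2 differences of -0.75 for ESRP1 and -0.77 for ESRP2, and -0.32 and -0.34 with 1 effective length. In steps SNORA40 stood at 202, 186 and 148 in MIA-PaCa2 and at 199, 145 and 164 in PANC-1, so LPCX was the highest of each line on this scale too. The step of PANC-1 with LPCX at its 127 nt was interpolated, as for SNORA63B. The 199 steps may thus be too low, and the SNORA40 differences with 1 effective length too close to 0.

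SNORA9, an H/ACA snoRNA in SNHG15, stood at 137, 111 and 109.7 TPM in MIA-PaCa2 and at 207, 65.1 and 50.3 TPM in PANC-1. In MIA-PaCa2 its log2 ratios to LPCX were -0.30 and -0.32, and -0.02 and 0.01 with 1 effective length. In PANC-1 they were -1.66 and -2.02, and -0.98 and -1.38 with 1 effective length, so that a lower value in PANC-1 was seen both ways. SNHG15 stood at 70.7, 64.6 and 50.3 TPM in the same PANC-1 libraries.

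Few members were higher with an ESRP in both lines. SNORD51, a C/D snoRNA in EEF1B2, stood at 5.54, 12.3 and 8.47 TPM in MIA-PaCa2 and at 8.72, 19.5 and 11.8 TPM in PANC-1, with the ESRP1 library highest in both lines. Its log2 difference between ESRP1 and LPCX was 1.05 ± 0.10 (SE, limma adjusted p = 0.243), on 2, 5 and 3 steps and 4, 9 and 5 steps. SNORD104, a C/D snoRNA in SNHG25, stood at 30.8, 6.44 and 2.42 TPM in MIA-PaCa2 and at 22.8, 7.74 and 14.3 TPM in PANC-1, with LPCX highest in both lines (log2 difference between ESRP1 and LPCX -1.77 ± 0.58, SE, limma adjusted p = 0.658). The other members with the largest shared differences were near the threshold. SNORD18A stood at 5.5 and 4.4 TPM with LPCX, which are 2 steps each, and was listed at 0 in all 4 ESRP libraries. Among those higher in both lines were SNORD91A, SNORD3K, SNORA21 and SNORD116-12 with ESRP1, and SNORA47, SNORD116-6, SNORD116-12, SNORA15B-1 and SNORA15B-2 with ESRP2. Each of these reached 5 TPM in 1 library and could not be tested. Among those lower with ESRP1, SNORD103C had 5.16 TPM with LPCX in MIA-PaCa2 and 4.09 TPM in PANC-1 and was listed at 0 with ESRP1, and SNORD53 had 9.79 against 2.19 TPM and 7.78 against 1.97 TPM (limma adjusted p = 0.434 and 0.658). SNORD88A, at 1.96 and 3.20 TPM with LPCX, was listed at 0 with ESRP1 in both lines. Among those lower with ESRP2, SNORA9B had 6.40 TPM with LPCX against 0 for MIA-PaCa2, and 13.5 against 1.61 TPM for PANC-1, and SNORD59A had 5.16 TPM against 0 and 10.2 against 2.19 TPM (limma adjusted p = 0.329 for both).

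With the deposited TPM, snoRNA ratios lay further from 0 than coding gene ratios at like TPM. The measure used, the median absolute ratio, holds a shared shift as well as a spread. Among members with a mean of 10 to 100 TPM, the median absolute log2 ratio to LPCX was 0.43 to 0.61 over 91 C/D members and 0.45 to 1.40 over 47 H/ACA members, across the 4 ESRP libraries. It was 0.39 to 0.55 over 62 microRNA entries, another class of short RNA, and 0.09 to 0.16 over 7214 coding genes. With their sign, the medians for ESRP1 and ESRP2 in PANC-1 were -0.31 and -0.50 for C/D and -1.10 and -1.40 for H/ACA members. They were -0.15 and -0.42 for microRNAs, -0.59 and -0.72 for 6 RNU, RNY and RN7S entries, and -0.97 and -0.86 for 3 SCARNA entries. In MIA-PaCa2 C/D had -0.18 and 0.02, H/ACA -0.44 and -0.34, and microRNAs -0.14 and 0.05. Medians below 0 in PANC-1 were thus not particular to snoRNAs.

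SNORD3A, the U3 snoRNA that takes part in cutting the ribosomal RNA precursor, stood at 22.4, 21.5 and 18.9 TPM in MIA-PaCa2 and at 25.1, 47.7 and 28.3 TPM in PANC-1, a log2 difference between the lines of 0.61 (limma adjusted p = 0.0232). Like SNORA73A it was highest in PANC-1 with ESRP1.

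The protein genes of the snoRNA complexes did not pass the test between either ESRP and LPCX. Of 4 C/D core genes in the fit, FBL was higher in PANC-1, with a log2 difference of 3.85, and the other 3, NOP56, NOP58 and SNU13, were lower. Of 4 H/ACA core genes, NOP10 was higher and DKC1, which encodes dyskerin, was lower. Of 16 assembly and processing factors, 5 were higher and 6 lower in PANC-1, that is, 31.2% and 37.5% beside 43.1% and 35.6% of all genes, and 0 were called for either ESRP, with median log2 differences of 0.16 for ESRP1 and 0.18 for ESRP2. Of 19 non-coding host genes, 4 were higher and 12 lower in PANC-1, that is, 21.1% and 63.2%, and none was called for either ESRP, with medians of -0.07 and -0.19.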

How the data were processed

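TPM per RefSeq transcript were deposited for 6 libraries as 1 table, read here as a signal because repeated lines lift the sums of the deposited columns above 1000000. Salmon and GRCh38 (hg38) are named in the submitters' processing notes, without versions, and strand settings were not given in the sources used here. Per the labels, libraries were made with a TruSeq mRNA kit from 2 ug of total RNA. Of 67792 lines, 8664 repeats were dropped, each column then summed to 1000000, and TPM were summed by gene symbol. Column headers matched the labels by line and construct, except that the ESRP2 and LPCX columns of MIA-PaCa2 were assigned by elimination.

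The 11829 genes that reached 5 TPM in 2 or more libraries were fitted with limma 3.58.1 in R 4.3.3 (trend, log2 of TPM + 1, construct and cell line as terms), with Benjamini-Hochberg adjustment over all of them and a threshold of 0.05. Cell line thus serves as block. Fold changes are on that scale, which understates the change of low genes. The fit was tested on simulated data. Within a line, log2 ratios had no test and were counted from 2-fold. Steps were read from small RNA entries of equal length and interpolated between lengths. TPM were recomputed with 1 effective length per entry, an alternative chosen after seeing the data. Hosts are GENCODE release 29 genes that hold the snoRNA on its strand where known, by position (RefSeq and GENCODE places overlapping by at least 80%). Where more than 1 gene held it on its strand, the gene with the highest mean TPM was taken, so another gene there may be the true host. The members, lists and markers were chosen with earlier results of these data known. Named members were the 8 most abundant of each class, up to 6 called per contrast and direction, the 5 highest and lowest shared by both lines per construct, those whose lines did not overlap, the SNORD113 to SNORD116 families, GAS5 and SNHG1 members and SNORD3A. SNORD2, SNORD175's neighbour FBL and the other EIF4A2 and TAF1D members were added after their values were seen. Of the members so chosen, 1 is not reported here, and families are given by counts and examples. Alternatives were other pseudocounts, filters, scalings, model terms, kept repeats and leaving out each library.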

Additional observations from a re-analysis of the deposited data

Results flagged for a closer look

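Some members with a mean of at least 20 TPM had an ESRP library on the opposite side of LPCX in the 2 lines. Those listed had log2 ratios of about 0.54 or more in size in each line. Others had a smaller ratio in 1 line and are not listed, such as SNORD18C for ESRP2, with 0.48 in MIA-PaCa2 and -2.69 in PANC-1. These differences between lines were not tested, since there is 1 library per line and construct. SNORD5, in TAF1D, stood at 47.8, 75.3 and 78.6 TPM in MIA-PaCa2 (LPCX, ESRP1, ESRP2) and at 115, 58.3 and 42.8 TPM in PANC-1, with log2 ratios to LPCX in PANC-1 of -0.96 for ESRP1 and -1.40 for ESRP2, against 0.64 and 0.70 in MIA-PaCa2. SNORD30, in SNHG1, had a ratio for ESRP2 of -0.85 in PANC-1 and 0.89 in MIA-PaCa2. SNORD19B, in GNL3, had one of -0.84 and 0.56. SNORD17, in SNX5, went the other way, with 0.64 in PANC-1 and -0.90 in MIA-PaCa2. For ESRP1, SNORA10 in RPS2 had a ratio of -1.07 in PANC-1 and 0.75 in MIA-PaCa2, and with 1 effective length -0.41 and 1.01. SNORD14E in HSPA8 had a ratio for ESRP1 of 0.54 in PANC-1 and -0.57 in MIA-PaCa2.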

How the results depend on the processing

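With 1 effective length per short RNA the order of the class medians turned for ESRP1, and H/ACA members with a step that were past 2-fold with ESRP1 in MIA-PaCa2 went from 11 lower and 4 higher to 3 lower and 8 higher. Members called between the lines, 111, numbered 68 with a filter of at least 5 TPM in all 6 libraries, which tests fewer members, and 108 to 142 without 1 library. The 1 member called between ESRP2 and LPCX was not called (0) with a pseudocount of 0.1, with no filter, with at least 5 TPM in all 6 libraries or without the cell line term. With 1 effective length per short RNA that member, SNORA63B, was not called either, whereas SNORD4A was. Leaving out 1 library gave 0 to 19, with 19 without MIA-PaCa2 ESRP2, 4 without PANC-1 ESRP2 and 0 without any 1 of the other 4. Between ESRP2 and ESRP1, where 0 were called, 1 was with at least 5 TPM in all 6 libraries, 2 with 1 effective length per short RNA, and 0 to 8 without 1 library, with 6 when MIA-PaCa2 ESRP2 was left out and 8 when PANC-1 ESRP2 was.

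For members past 2-fold within a line, a pseudocount of 5 gave 10 lower (30 before) and 7 higher (14) for ESRP1 in MIA-PaCa2, 16 lower (31) for ESRP2 in MIA-PaCa2 and 5 higher (13) for ESRP1 in PANC-1. At least 20 TPM in either library, which leaves fewer members, gave 7 lower and 3 higher for ESRP1 and 10 lower and 9 higher for ESRP2 in MIA-PaCa2, and 41 lower and 1 higher for ESRP1 and 49 lower and 0 higher for ESRP2 in PANC-1. With 1 effective length, PANC-1 had 39 lower and 20 higher for ESRP1 and 62 lower for ESRP2. The cause of the other changes was not tested.

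The labels give no replicate numbers, so the cell line term was the block by which ESRP and LPCX libraries were paired. TPM show no depth, and values of a few steps limit most members. The median ratio scaling factors lay between -0.04 and 0.05 on the log2 scale.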
